A study of Drosophila melanogaster with 4 samples.

Results

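The long blocks of histone H3 monomethylated at lysine 27 (H3K27me1) are the enriched regions that span 10 kb or more in the list deposited for the whole series. There were 636 of them among 12359 enriched regions, and they held 9.94 Mb, or 24.0% of the covered bases. Members were chosen by the length of the region, so their length is a description and not a finding. The series profiled wild-type Oregon-R Drosophila melanogaster at larval instar 3 by chromatin immunoprecipitation and sequencing (ChIP-seq), with a rabbit polyclonal antibody from Millipore. All samples share this strain, genotype and stage, and the labels list 2 ChIP samples and 2 input samples. Each ChIP replicate has its own region list, and values of the inputs were not analysed here. The labels name no tissue or cell type beyond the larva, so each region is an average over the cells of the homogenate. Whether the replicates came from separate larval collections is not stated, so their spread may be technical.

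Lysine 27 of histone H3 can carry a single, a double or a triple methyl mark. In Drosophila the Polycomb repressive complex PRC2, through its subunit E(z), methylates this residue, and the trimethylated form is bound by Polycomb. The demethylase Utx removes methyl groups from the same residue. In mouse embryonic stem cells the monomethylated form is known along transcribed gene bodies. Positions here are on FlyBase release 5, and no gene is named, since the gene table used here is on another release.

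The whole-series list stands for the same ChIP samples as the replicate lists. The sources used here do not give how the replicates entered it, so finding a block in the replicates is not independent evidence for it. Counts and medians are therefore given with no test. Beside counts of blocks by cover, pieces and nearness, the share of all 12359 whole-series regions that meets the same condition is given as the background. The depth of the libraries is unknown.

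Most blocks were not far above the limit. The median block spanned 13.6 kb, with quartiles of 11.5 and 17.2 kb. From 10 to 12 kb there were 204 blocks, from 12 to 15 kb 192, from 15 to 20 kb 134, from 20 to 30 kb 86, and above 30 kb 20. Just inside the limit lay blocks of 10015 bp on 3L and 10020 bp on 2R, with scores of 0.46 and 0.62. Just outside it lay regions of 9996 bp on 3L and 9992 bp on 2L, with scores of 0.56 and 0.58. The limit thus cuts through a continuous range of lengths.

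The enrichment score that the authors deposited for each region is on a scale that the files do not define, so scores are given as deposited and no fold is computed from them. Blocks had scores from 0.33 to 1.17 with a median of 0.63. Regions of 5 to 10 kb had a median of 0.55, those of 2 to 5 kb 0.43 and those under 2 kb 0.36. The highest scores of the list were not in blocks: regions under 2 kb reached 3.57. Only 2 of the 636 blocks scored below the median of all regions, 0.41. Among blocks, length and score were weakly related, with a Spearman coefficient of 0.24 across 636 blocks that share their libraries. The 20 blocks above 30 kb had a median score of 0.81, against 0.61 for the 204 blocks of 10 to 12 kb.

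**Figure D1:**
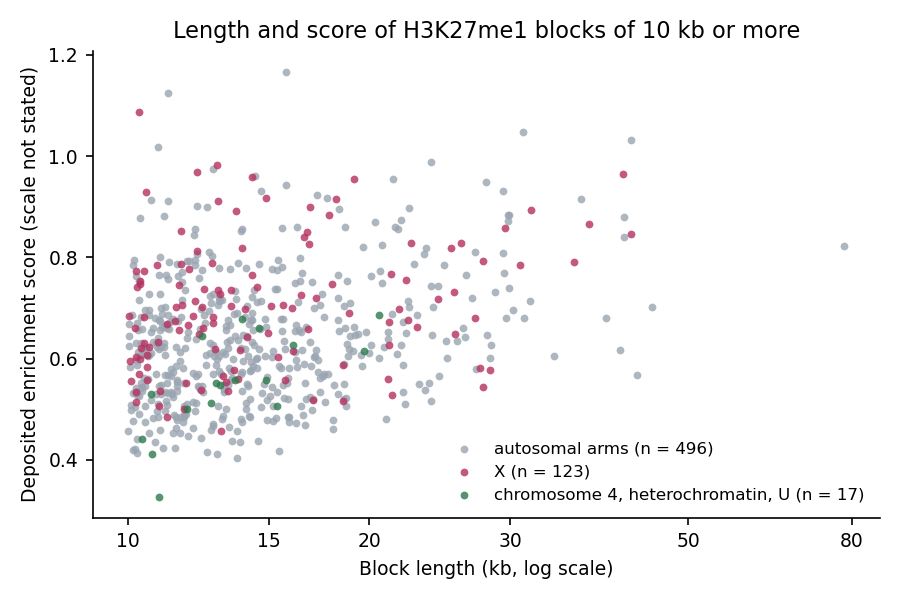
Each point is 1 of the 636 blocks, with its length in kb on a logarithmic axis and its deposited score, whose scale is not stated. Scores run from 0.33 to 1.17, and the longest block of 78.3 kb stands apart in length but not in score. The median score is 0.70 on X and 0.62 on the autosomal arms, and their points overlap widely.

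The highest-scoring block, on 2L (167013 to 182754, 15.7 kb), had a score of 1.17. A single region of each replicate, scoring 1.18 in both, spanned 98.5% of it in replicate 1 and 99.8% in replicate 2. A block of 11.2 kb on 3L (628627 to 639844) came next with 1.12, and its replicate scores were 1.28 and 0.99. A block of 10.3 kb on X (15707318 to 15717647) had 1.09, a block of 31.1 kb on 2R (1988382 to 2019473) had 1.05, and a block of 42.5 kb on 3R (9805783 to 9848266) had 1.03. These 5 blocks covered lengths from close to the limit to among the longest. All were at least 94.3% covered in each replicate and, except for a 1 bp break on 2R in replicate 2, unbroken.

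The lowest scores were found on and off the arms. A block of 10.9 kb on 2RHet (2908371 to 2919310) had a score of 0.33, and it was 67.7% and 64.4% covered in replicates 1 and 2, in 2 and 5 pieces. The next were 13.7 kb on 2R (9422259 to 9435954) with 0.40, 12.9 kb on 3L (4807762 to 4820667) with 0.41, 10.7 kb on 3RHet (1954006 to 1964711) with 0.41 and 10.3 kb on 2L (5237623 to 5247881) with 0.41. None of these 5 was covered above 78.03% in either replicate. Over all blocks the score went with the covered share, with Spearman coefficients of 0.62 in replicate 1 and 0.58 in replicate 2 across 636 blocks. These coefficients are descriptions, since the lists share reads.

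Blocks lay mainly on the large arms. The 5 large arms held 619 blocks, with 148 on 3R, 133 on 3L, 123 on X, 116 on 2R and 99 on 2L. Per Mb of scaffold, X and 2R each had 5.49 blocks, 3L had 5.42, 3R 5.30 and 2L 4.30. X therefore had 1.07 times as many blocks per Mb as the 4 autosomal arms together, and 1.11 times as many block bases. Blocks took 8.85% of the bases of X and 7.99% of those of the autosomal arms. Chromosome 4, which is small and largely heterochromatic, had 5 blocks, or 3.70 per Mb. The placed heterochromatin scaffolds had 11 blocks (1.19 per Mb), 7 on 2RHet and 2 each on 3LHet and 3RHet. The unplaced sequence U had 1 block, and 2LHet, XHet, YHet and Uextra had none. Scaffold lengths include sequence that short reads may not map to, in an amount not known here.

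Where regions lay on heterochromatin they were less often blocks. Of the regions on the autosomal arms 5.80% were blocks, on X 5.24%, on chromosome 4 3.52%, on the placed heterochromatin 1.29% and on U 0.21%. Over all scaffolds this share was 5.15%. The longest block off the arms measured 20.6 kb, on 2RHet (3127384 to 3147963), and the 17 blocks there had a median length of 13.03 kb against 13.6 kb on the arms.

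Along the arms, blocks were uneven. Over 117 full bins of 1 Mb, placed by the middle of the block, the median was 5 blocks and the range 0 to 15. The bin of 3L from 16 to 17 Mb held 15 blocks with 229 kb, the first Mb of 3R held 14 with 228 kb, and 2R from 6 to 7 Mb held 13 with 176 kb. The 11 bins with 10 or more blocks held 126 of them. Bins with no block were 2L from 10 to 11 Mb, 3L from 6 to 7 Mb and 3L from 23 to 24 Mb. The longest block-free stretch of an arm was the last 1715 kb of 3L, which ends towards the centromere. It was not free of the mark: 230 shorter regions covered 27.2% of it. Interior stretches without a block reached 1389 kb on 3R (12141384 to 13530763), where 81 shorter regions covered 14.8%, and 1355 kb on 2L (5305415 to 6660029), where 119 covered 21.7%. In the poorest of the 10 longest stretches, 1039 kb on 2L (14689219 to 15728703), 18 shorter regions covered 5.11%.

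Blocks came close to the ends of most arms. On 3R the first block began 0.928 kb from the first base, on the centromere side, and 14 blocks lay within the first Mb. On 2L, X and 3L, whose first bases lie towards the telomere, the first blocks began 74.0, 76.2 and 158 kb in. The last blocks of 2L, 3R and X ended 101, 101 and 167 kb before the last base. The last block of 2R ended 251 kb before it.

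Scores of blocks were higher on X than on each autosomal arm. The median block score in the whole-series list was 0.70 on X, against 0.65 on 2L, 0.62 on 2R, 0.61 on 3L and 0.61 on 3R. Weighting the scores of replicate regions by the bases they cover in a block, the medians were 0.82 on X and 0.71 on the autosomal arms in replicate 1. In replicate 2 they were 0.74 and 0.65. The difference between X and the autosomal arms was 0.096 ± 0.013 (SD, n = 2). With 2 replicates, no exact two-sided test of signs can give a p below 0.5. Regions of 5 to 10 kb had medians of 0.61 on X and 0.54 on the autosomal arms, so the higher scores of X were not particular to blocks.

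Blocks stood amid other regions. The median gap from a block to the nearest whole-series region was 542.5 bp, against 574 bp for regions of 5 to 10 kb, 846.5 bp for those of 2 to 5 kb and 1387 bp for those under 2 kb. Another region lay within 500 bp of 308 blocks (48.4%), against 34.5% of all regions and 46.6% of regions of 5 to 10 kb. Within 100 bp this held for 95 blocks (14.9%), against 9.81% and 14.1%. In the 10 kb on either side, a median of 54.6% of the bases was covered by whole-series regions, and 39.1% and 34.3% in replicates 1 and 2. For regions of 5 to 10 kb these medians were 49.6%, 33.3% and 26.5%, and for those under 2 kb 26.4%, 9.93% and 7.31%. In all, 6 blocks (0.943%) had no other whole-series region within 10 kb on either side. This was so for 6.21% of all regions and 2.18% of regions of 5 to 10 kb.

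The nearest neighbour of a block had a median length of 3.41 kb and a median score of 0.44. That it was mostly shorter follows from the rule on length. For regions of 5 to 10 kb these medians were 3.05 kb and 0.43, for those of 2 to 5 kb 2.21 kb and 0.41, and for those under 2 kb 1.84 kb and 0.41. In 517 of 636 cases (81.3%) the neighbour scored below the block, against 49.7% of all regions and 72.9% of regions of 5 to 10 kb, and the median difference was -0.18. The nearest neighbour was itself a block in 81 cases (12.7%), against 5.40% of all regions and 10.6% of regions of 5 to 10 kb. It was a region under 2 kb in 175 (27.5%), against 48.3% and 30.6%.

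**Figure D2:**
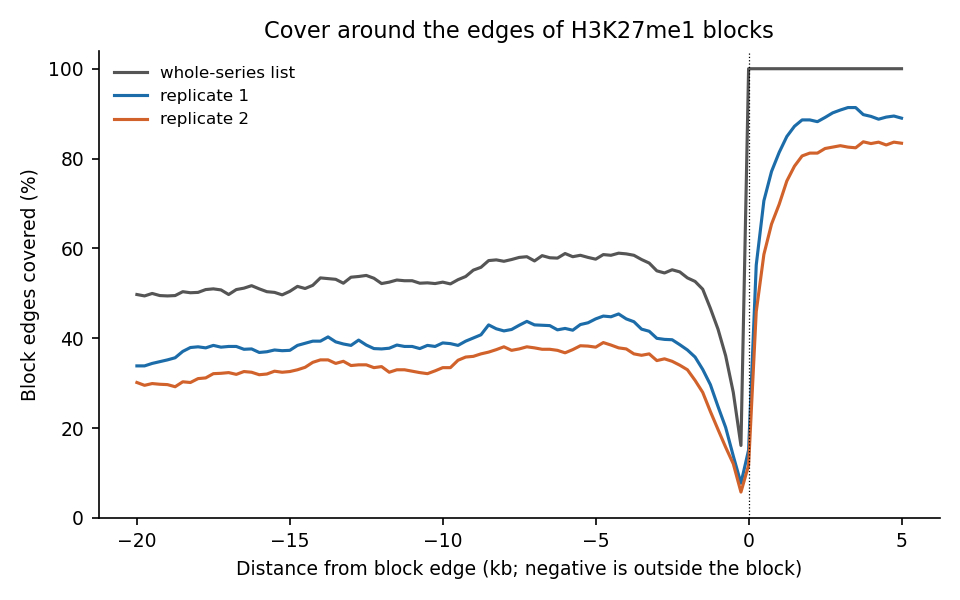
The share of block edges with a covered base is plotted against distance in kb from the edge, with both edges of each block together and negative distances outside the block, for the whole-series list and each replicate. At 1 kb inside the edge 81.4% of edges are covered in replicate 1 and 69.8% in replicate 2. Just outside the edge all lines dip, to 16.1% in the whole-series list and 7.70% and 5.74% in replicates 1 and 2 at 0.25 kb. An edge is by definition where a whole-series region ends.

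Cover by the replicates was lower at the edges than inside. At the first base of a block 15.1% of edges were covered in replicate 1 and 11.7% in replicate 2, and at 3 kb inside these shares were 90.8% and 82.9%. With each block divided into 10 equal parts, the mean covered share of the first and the last part was 72.6% and 68.3% in replicate 1 and 60.6% and 60.1% in replicate 2. In the parts between, it lay from 87.9% to 90.8% in replicate 1 and from 79.8% to 84.0% in replicate 2. Replicate regions began a median of 186.5 bp inside a block edge in replicate 1 and 294 bp in replicate 2. At 189 of 1272 edges a region of replicate 1 ran past the block, and at 148 of 1266 a region of replicate 2 did, by up to 2252 and 7563 bp. The blocks of the whole-series list were thus slightly wider than what either replicate marked.

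Each replicate covered most of most blocks. Replicate 1 covered 86.6% of all block bases and a median of 88.6% of a block, with a range of 29.8% to 100%. Replicate 2 covered 79.5% of the bases and a median of 80.9%, with a range of 0% to 100%. The replicates averaged a median of 84.8% ± 5.4 (SD, n = 2). At least 90% of the block was covered for 289 blocks in replicate 1 and 204 in replicate 2, against 22.4% and 10.9% of all regions. For regions of 5 to 10 kb these shares were 38.6% and 22.0%. Both replicates marked 72.2% of block bases and neither marked 6.13%. Cover reached that level in both replicates for 143 blocks (22.5%, 95% Wilson interval 19.4 to 25.9), against 4.07% of all regions and 13.7% of regions of 5 to 10 kb. These intervals treat blocks as independent and cover counting error only. A region of both replicates met 633 blocks (99.5%), against 35.1% of all regions and 95.1% of regions of 5 to 10 kb. The rule on length favours such counts, since a longer region meets others more easily.

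Replicate 1 covered more of the block than replicate 2 in 425 of 636 blocks (66.8%). Over all whole-series regions this share was 41.7%, but a region that neither replicate covered counts as not higher there, and among regions of 5 to 10 kb it was 67.0%. The median difference was 4.90 percentage points. Replicate 1 was ahead by over 25 points in 91 blocks and replicate 2 in 14, against 26.3% and 10.6% of all regions. Under 50% of the block was covered for 12 blocks in replicate 1 and 52 in replicate 2, against 50.2% and 63.4% of all regions. Across 636 blocks the covered shares of the replicates had a Spearman coefficient of 0.44, and across the 633 blocks scored in both the replicate scores had one of 0.75, as descriptions.

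**Figure D3:**
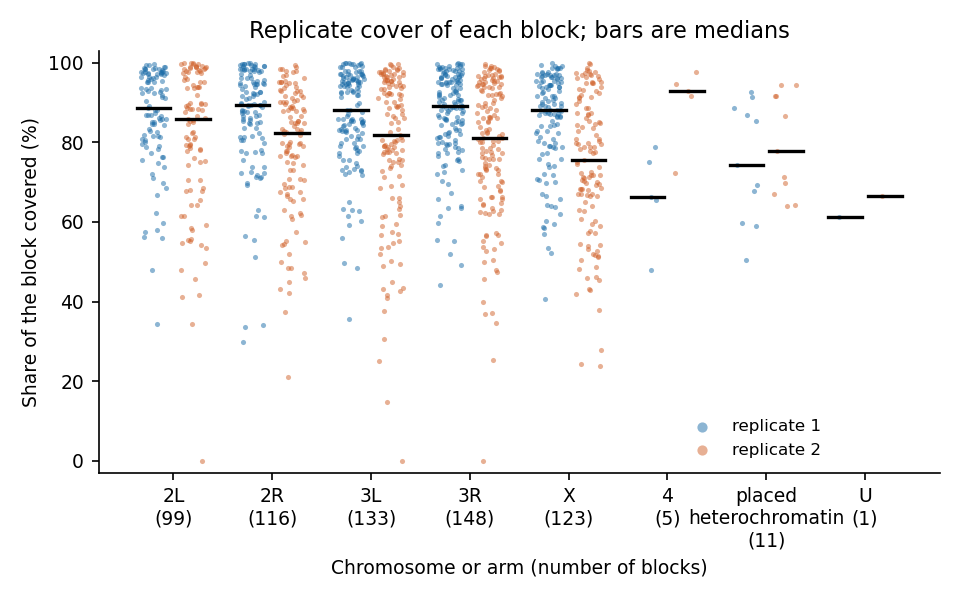
Each point is the share of 1 block covered by the regions of a replicate, in percent, by chromosome, arm or scaffold group, with bars at the medians. Replicate 1 lies above replicate 2 on the 5 large arms, by most on X (88.1% and 75.4%), and below it in all 5 blocks of chromosome 4 (66.4% and 92.8%). Regions of 5 to 10 kb are not drawn, and among them the gap is not widest on X.

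The gap between replicates was not the same everywhere. On 2L the median covered share was 88.6% in replicate 1 and 85.9% in replicate 2, and on X 88.1% and 75.4%. On 2R, 3L and 3R replicate 1 had 89.4%, 88.1% and 89.0% and replicate 2 had 82.3%, 81.9% and 81.03%. X was thus the arm with the highest median block score and the lowest median cover by replicate 2. Its wider gap between replicates was not shared by regions of 5 to 10 kb. Their medians in replicates 1 and 2 were 82.1% and 68.6% on X, 86.5% and 72.4% on 2L and 86.6% and 69.2% on 2R. On 3L they were 86.1% and 69.8%, and on 3R 86.0% and 70.2%. For blocks of chromosome 4 and the placed heterochromatin the order of the replicates was turned. The 11 blocks of the placed heterochromatin had medians of 74.4% and 77.7%, with replicate 1 ahead in 4. The exception by scaffold was 3RHet, whose 2 blocks had medians of 75.1% and 69.2%. The 5 blocks of chromosome 4 were covered at 78.7%, 75.1%, 47.9%, 65.4% and 66.4% in replicate 1, in the order of their positions, and at 91.5%, 97.7%, 94.6%, 92.8% and 72.4% in replicate 2. The 15 regions of 5 to 10 kb on chromosome 4 had the same order, with medians of 54.9% and 87.5%. Each replicate is a single library, so the difference between replicates in these chromosomes has no repeat.

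Few blocks anywhere were covered in full, 2 in replicate 1 and 1 in replicate 2. None of the 17 off the arms was at least 90% covered in both replicates, against 143 of the 619 on the arms. Over all regions this share was 4.07%. None was met by exactly 1 region in each replicate, whatever its cover, against 83 on the arms and 23.0% of all regions. These counts off the arms rest on 17 blocks only. The longest of them, the block of 20.6 kb on 2RHet (3127384 to 3147963), was covered at 92.6% and 86.7%, in 4 pieces in each replicate, and one of 13.9 kb there (2807307 to 2821203) at 87.0% and 94.3%. On 3LHet a block of 13.03 kb (2452760 to 2465793) had a cover of 50.5% and 94.5% in replicates 1 and 2. The block on U (1243938 to 1256822) was covered at 61.1% and 66.6%.

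A few blocks were marked almost only by replicate 1. A block of 10.2 kb on 3L (8578801 to 8588993) had 97.8% of its bases covered there, by 1 region scoring 0.70, and no region of replicate 2 met it. Blocks of 16.4 kb on 3R (20569569 to 20586012) and 10.5 kb on 2L (4493708 to 4504218) were covered at 84.6% and 81.7% in replicate 1 and also met no region of replicate 2. A block of 10.2 kb on X (19474286 to 19484528) had 89.6% and 23.7%, and one of 12.9 kb on 3L (4807762 to 4820667) had 78.03% and 14.8%. All 5 had whole-series scores of 0.41 to 0.51, below the lower quartile of blocks, 0.55. Among the other blocks with the lowest mean cover, 2 were under 50% covered in both replicates. On 2R a block of 11.4 kb (12585148 to 12596585) was covered at 34.1% and 42.1%, and on 3R one of 11.9 kb (27722130 to 27734019) at 44.1% and 45.7%. The other, of 13.7 kb on 2R (16450836 to 16464534), was covered at 61.3% and 21.1%.

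Most blocks were met by several replicate regions, here called pieces. A piece is a replicate region that overlaps the block by at least 1 bp. Counted per block there were 1465 pieces in replicate 1 and 1508 in replicate 2. They came from 1465 and 1505 distinct regions, since 3 regions of replicate 2 met a pair of blocks, or 17.8% and 21.8% of those lists. The median block had 2 pieces in each replicate, with means of 2.30 and 2.37. A single piece was found in 180 blocks in replicate 1 and 154 in replicate 2, against 44.8% and 34.6% of all regions. In both replicates 83 blocks (13.1%, 95% Wilson interval 10.7 to 15.9) had 1 piece, against 23.0% of all regions and 44.8% of regions of 5 to 10 kb. In both replicates 383 blocks (60.2%) had 2 or more pieces, against 5.12% of all regions and 15.8% of regions of 5 to 10 kb. Longer regions have room for more pieces, so these shares follow in part from the rule.

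**Figure D4:**
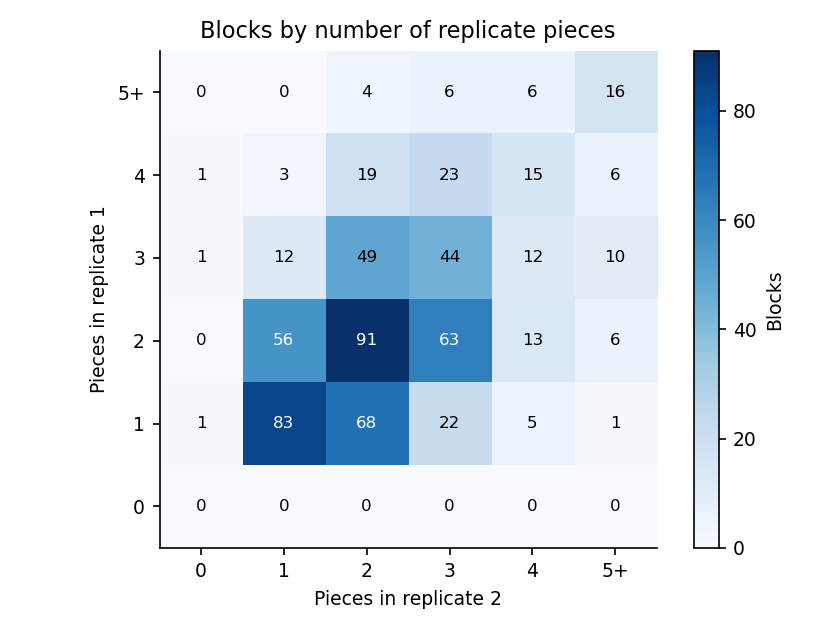
The number of blocks is shown for each combination of pieces in replicate 1 (vertical) and replicate 2 (horizontal), with 5 or more pieces together. The fullest cell has 2 pieces in each replicate, 83 blocks have 1 piece in each, and no block lacks a piece in replicate 1.

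For 345 blocks (54.2%), no replicate region that met them reached 10 kb itself. This was so for 97.5% of all regions. A replicate region of 10 kb or more met 131 blocks in both replicates, 121 in replicate 1 alone and 39 in replicate 2 alone. The longest piece of a block measured a median of 8.79 kb in replicate 1 and 7.14 kb in replicate 2, or 58.8% and 49.6% of the block. Conversely, 263 of the 268 regions of 10 kb or more in replicate 1 and 181 of the 182 in replicate 2 met a block. The 5 others of replicate 1 lay on 2L, 2R and 3R and the other of replicate 2 on chromosome 4 (180218 to 191446). The whole-series list covered at least 96.5% of each of the 6, with 1 or 2 regions of up to 9.84 kb.

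Blocks with 1 piece in both replicates, whatever its cover, had a higher median score than those with 2 or more in both. The 83 blocks with 1 piece in both replicates had a median score of 0.76 and a median length of 12.2 kb. The 383 blocks with 2 or more pieces in both had 0.59 and 14.3 kb, and the 138 with 3 or more in both had 0.57 and 17.0 kb. Among the 159 blocks with the highest scores 50 had 1 piece in both replicates, and among the 159 with the lowest scores 2 had. Across 636 blocks the Spearman coefficient between score and number of pieces was -0.44 in replicate 1 and -0.35 in replicate 2. Between length and number of pieces it was 0.35 and 0.30.

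The blocks with most pieces were long. In all, 9 blocks had 12 or more pieces over both replicates, and 7 of them scored below the median of blocks, 0.63. The block of 43.2 kb on 2R (1061862 to 1105059), the third longest, had 6 pieces in replicate 1 and 9 in replicate 2, of which the longest measured 12.3 and 5.39 kb. Its score was 0.57. On X a block of 28.3 kb (12994039 to 13022356) had 7 pieces in each replicate, and one of 27.7 kb (17834245 to 17861957) had 6 and 8. On 3R a block of 23.7 kb (6375186 to 6398927) had 7 in each, and one of 41.1 kb (10567633 to 10608751) had 6 in each, the longest of 5 blocks with 12 pieces in all. The block of 42.5 kb on 3R (9805783 to 9848266) was as long and was held by 1 region in each replicate, of 42.1 and 42.02 kb. Among the 10 longest blocks the number of pieces thus ranged from 1 to 9 in a replicate.

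The other blocks among the 10 longest lay between these extremes. The longest, of 78.3 kb on 3L (17955115 to 18033384, score 0.82), had 6 pieces in replicate 1 and 4 in replicate 2, with breaks of at most 1588 and 1116 bp. The block of 45.04 kb on 2L (4069808 to 4114847, score 0.70) had 6 and 5 pieces, with breaks of up to 3303 and 2585 bp. On X, blocks of 42.4 kb (11387538 to 11429932) and 41.5 kb (13108969 to 13150505) had 3 and 2 pieces in replicate 1 and 1 each in replicate 2. On 3R a block of 41.6 kb (26149657 to 26191259) had 4 and 3 pieces. On 2L blocks of 41.6 kb (9177144 to 9218733) and 39.5 kb (11218035 to 11257550) had 2 and 6 pieces in replicate 1 and 3 and 6 in replicate 2. Scores of these last 5 blocks ran from 0.68 to 0.97.

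Breaks between pieces were mostly short. Replicate 1 had 829 breaks with a median of 465 bp and replicate 2 had 875 with a median of 652 bp. Breaks of 500 bp or less made up 52.5% and 41.03% of them, and breaks of 2 kb or more numbered 70 and 136. Breaks took 6.41% of block bases in replicate 1 and 9.46% in replicate 2, while 690 and 1064 kb lay uncovered at block edges. The widest break of replicate 1 was 5846 bp, in a block on 3L (16681570 to 16704650). The widest of replicate 2 was 13852 bp, in a block of 36.1 kb on X (1855550 to 1891626) that replicate 1 covered at 88.1%.

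The replicates broke blocks in the same places for only a minority of the break bases. Of the break bases of replicate 1, 30.0% were also in a break of replicate 2, and of those of replicate 2, 20.3% were in a break of replicate 1. Over all block bases, breaks of replicate 2 took 9.46% and breaks of replicate 1 took 6.41%. Common bases made up 13.8% of the bases in a break of either replicate. A single region of replicate 2 bridged 398 of the 829 breaks of replicate 1 (48.01%) in full, and regions of replicate 1 bridged 496 of the 875 breaks of replicate 2 (56.7%). At least 1 base was shared with a break of the other replicate for 355 breaks of replicate 1 (42.8%) and 342 of replicate 2 (39.1%).

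Blocks were often close to other blocks. The median gap to the nearest other block was 25.8 kb, with quartiles of 6.61 and 91.5 kb. Another block lay within 50 kb of 403 blocks (63.4%), within 25 kb of 315 (49.5%) and within 100 kb of 490 (77.04%). Of all regions 42.3%, 27.5% and 61.4% had another region that is a block within these distances, and of regions of 5 to 10 kb 58.02%, 43.4% and 74.6%. Chained by gaps of at most 50 kb, the blocks formed 384 runs: 233 lone blocks, 92 runs of 2, 35 of 3, 14 of 4, 5 of 5, 4 of 6 and 1 of 9. Between the blocks of a run, shorter whole-series regions covered 49.6% of the bases. Over all bases of the 5 arms outside blocks they covered 26.4%.

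**Figure D5:**
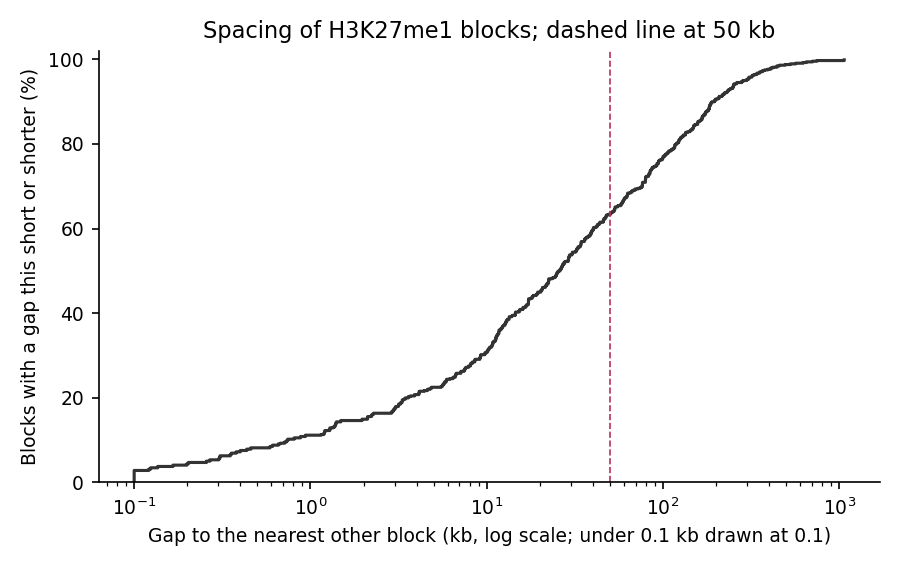
The line gives the share of blocks, in percent, whose nearest other block is at most as far as the gap on the horizontal axis, in kb on a logarithmic axis. It crosses the dashed line at 50 kb at 63.4% of the blocks.

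The run with most blocks, 9, spanned 275 kb on 2L (5030388 to 5305414). Its blocks measured 10.3 to 28.04 kb and took 59.2% of the span. With 17 shorter regions among them the whole-series list covered 77.8% of it, replicate 1 61.1% and replicate 2 58.9%. Scores within it ran from 0.41 to 0.95, so neighbouring blocks differed widely. Immediately after it came the block-free stretch of 1355 kb on 2L.

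The 4 runs of 6 blocks lay on 2R, 3R and X. The run on 2R (1988382 to 2146404, 158 kb) was the most densely marked, with 93.5% covered in the whole-series list and 82.4% and 82.6% in the replicates. The run on 3R (1027064 to 1218280, 191 kb) was covered at 70.0%, 59.8% and 57.3%. On X one run (6444344 to 6697483, 253 kb) was covered at 72.3%, 58.3% and 49.1%, and the other (19561218 to 19799894, 239 kb) at 62.3%, 47.7% and 33.6%. Both of these runs had less cover in replicate 2 than in replicate 1. The 2 runs of 4 blocks on X had more, with 87.7% and 91.6% (3238000 to 3353662) and 67.1% and 72.3% (3571973 to 3666663) in replicates 1 and 2.

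Some neighbouring blocks were almost touching. In 26 pairs the blocks were separated by 500 bp or less with nothing between them, with a median gap of 182.5 bp. No region of replicate 1 bridged such a gap and a region of replicate 2 bridged 3, so 23 pairs were bridged in neither replicate. The whole-series list has a gap there by definition. Block edges in general were seldom covered, with 15.1% and 11.7% covered at the first base in replicates 1 and 2. The share bridged among short gaps between other regions is not given here. The shortest gap was 1 bp, on 3R between the block of 41.1 kb (10567633 to 10608751) and the next of 19.6 kb, and replicate 2 bridged it. The longest such pair, on 3L (17937508 to 18033384), joined a block of 17.5 kb with the longest block across 136 bp into 95.9 kb. Scores on the sides of such a gap could differ, as for 0.95 and 0.42 on 3R (12107364 to 12141383), across 61 bp.

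The 233 lone blocks had no other block within 50 kb. The most isolated on the arms lay on 3R (8519513 to 8530106), 745 kb from the next block, with a score of 0.60 and cover of 84.6% and 79.2%. The next on 3R (13530764 to 13543025) was 704 kb away from another, with a score of 0.76, and was held by 1 region in each replicate at 89.3% and 98.1%. The others lay on X (21200277 to 21210586, 648 kb), 3L (7137746 to 7150086, 621 kb) and 3R (3932162 to 3948069, 565 kb), with scores of 0.57, 0.70 and 0.48. These most isolated blocks differed from each other in score and cover. Off the arms, a block on 2RHet (213659 to 227254) was 1066 kb from the next.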

How the data were processed

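The 3 deposited lists hold regions of significant enrichment with an enrichment score that the authors computed, per the file headers. The scale of the score is not stated, and positions are the deposited start and end of each region on FlyBase release 5, per the file headers. Bowtie 0.12.7 is named, with no role, per the submitters' processing notes. No source used here names the region caller, its threshold or how the inputs entered. Read counts are not in these lists, so depth is unknown.

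In the whole-series list 3 lines, of 1.44 to 1.56 kb, are named as depletion and have scores from -0.033 to -0.00073. They were left out. Ends past a scaffold were trimmed (2 regions in the whole-series list, 1 in replicate 1). Blocks were regions of 10 kb or more. Pieces, breaks, gaps and runs within 50 kb were counted from the intervals, and a replicate score of a block is the mean over its pieces weighted by their bases. The members, the measures and the rule for named regions were chosen with earlier results of these data known. That rule took the 10 longest blocks, the 5 at each end of the scores, the 5 least covered, most broken, most unequal between replicates and most isolated, all blocks off the arms, the largest runs and the regions next to the limit. Blocks with the widest breaks and the closest pairs were named after their values were seen. The interval steps were tested on 20 simulated sets of lists with 0 mismatches. Alternatives changed the length limit, joined regions, the score, the arms, the cover and overlap limits and the replicates. The steps ran in Python 3.11.15 with numpy 2.4.6, with pandas 2.3.3 and with scipy 1.17.1.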

Additional observations from a re-analysis of the deposited data

How the results depend on the processing

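No test was run. Only the score difference to regions of 5 to 10 kb was checked for a change of sign, and it kept its sign. The score difference between X and the autosomal arms and the cover difference between replicates were not recomputed. Of 76 values under alternatives for 11 results, 39 stayed close and 37 moved. Close means within 1.5 times for a count, within 1 SD between replicates for a replicate mean, and within the 95% interval for other values. Either replicate alone always lies within 1 SD of their mean, so leaving a replicate out could not move such a mean. For shares of covered bases and of break bases the interval treats each base as independent. It is therefore very narrow, and small shifts in these shares count as moved. With a limit of 8 kb there were 974 blocks with 31.3% of the covered bases, 77.7% of them within 50 kb of another, 181 held by 1 piece in both replicates, and 12.97% of break bases common. With 15 kb these values were 240, 12.4%, 39.2%, 16 and 13.3%, the score difference to regions of 5 to 10 kb was 0.11 (0.083 as reported), 67 blocks were 90% covered in both replicates and the median was 3 pieces. With regions within 1 kb joined there were 1082 blocks with 47.6% of the covered bases, 78.3% within 50 kb of another, a gap of 2040.5 bp, a median cover of 72.1%, 81 blocks 90% covered in both, 55 of 1 piece in both, a median of 3 pieces and 27.2% common breaks. With scores at or above the list median, 33.9% of covered bases lay in blocks, the gap was 1441.5 bp and the score difference 0.066. On the arms alone the share of covered bases was 25.2% and common breaks 13.5%. Within 25 or 100 kb of another lay 49.5% or 77.04%. At 75% and 95% covered in both replicates were 371 and 71 blocks. With replicate regions within 500 bp joined, 191 blocks had 1 piece in both, the median was 1.5 pieces and common breaks 12.3%. With a single replicate, 204 to 289 blocks were 90% covered, 154 to 180 had 1 piece, the median cover was 80.9% to 88.6% and the median 2 pieces. Keeping the depletion lines, an alternative chosen after seeing the data, left 636 blocks. The cause of these shifts was not tested beyond the settings themselves. No paired analysis was possible because the inputs that share replicate numbers with the ChIP samples were not analysed here. Unknown depth limits any statement on why replicate 2 marked less.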
